A study of Mus musculus with 24 samples.

Results

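Macrophages labelled TBK1-cKD and macrophages labelled TBK1-WT were compared 8 h after R837, in 6 of 24 RNA-seq libraries chosen by their titles. The 3 libraries titled TBK1-cKD ∆control (TBK1-cKD control in the text) were set against the 3 titled TBK1-WT ∆control (TBK1-WT control). The series record expands the first genotype as a conditional knockout of TBK1. TBK1 loss in the text means this labelled genotype, not a measured level of TBK1 protein. The untreated cells of both genotypes (3 libraries each) and R837-treated TBK1-WT cells with an IKKe knockout (TBK1-WT ∆IKKe, 3 libraries) served as further comparisons. All were bone marrow-derived macrophages grown with M-CSF, each group from 3 individual mice counted as biological replicates. The promoter or cell type that drives the deletion, the exons altered and the litters are not described in the labels, and the protocols of all records speak of wild-type C57BL/6N mice. Replicate numbers follow the order of the records and pair nothing.

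TBK1 and IKKe (the product of Ikbke) are closely related kinases that phosphorylate the transcription factor IRF3 and so switch on type I interferon genes when the adaptors TRIF, MAVS or STING signal. Interferon then acts back on the cell through its receptor to raise antiviral genes. R837 (imiquimod) is a small-molecule agonist of Toll-like receptor 7, which signals through MyD88 to NF-kB and MAP kinases and so to cytokines such as TNF and IL-1. Both kinases have also been reported to restrain the canonical IKK kinases that activate NF-kB.

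A pair of libraries stood apart. Replicate 1 of R837-treated TBK1-WT control held 409 CPM of Malat1 and 598 CPM of Neat1 (CPM, counts scaled to a common library total), both nuclear RNAs, while the other 5 libraries of the 2 R837 groups held 39.5 to 50.3 and 22.9 to 29.5 CPM. Its share of reads outside the gene counts was 11.3%, against 8.54 to 8.93% in the other 5. Replicate 2 of R837-treated TBK1-cKD control had the fewest counts, 19.7 M in a series that ran to 41.3 M, and 14226 genes with a count, against 17948 and 17592 in its group mates. Of genes whose expected count in it was 5 to 10, 38.0% stood at 0, against 2.69 to 7.03% in the other 5 libraries. Values are therefore given without the first of these libraries, and counts of genes also without both, a setting chosen after the data were seen. Defining macrophage markers such as Csf1r, Adgre1 and Cd68 belonged to a list of 18 that summed to 33900 to 35900 CPM in TBK1-cKD control and 34400 to 37800 CPM in TBK1-WT control after R837.

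Tbk1, on GRCm38 chromosome 10 from 121546455 to 121586787, was measured first as a check of the labels. Its level after R837 was 103, 93.4 and 107 CPM in TBK1-cKD control and 148, 118 and 123 CPM in TBK1-WT control (here and for every gene level from this point, CPM after TMM scaling). The groups did not overlap, and TBK1-WT replicate 1 was the highest library. The log2 change was -0.36 ± 0.07 (standard error, n = 3 libraries each; edgeR quasi-likelihood test with Benjamini-Hochberg adjustment, adjusted p = 0.0037). It was -0.26 without TBK1-WT replicate 1 and -0.19 without both libraries that stand apart, where it was no longer called (adjusted p = 0.0752; 0.000116 to 0.291 over the alternatives). Untreated cells held 76.3, 74.0 and 73.4 CPM in TBK1-cKD control and 102, 104 and 100.0 CPM in TBK1-WT control, a change of -0.45 ± 0.07. Most Tbk1 RNA was still counted in TBK1-cKD control, and reads from outside an altered exon check nothing. Ikbke, the gene of the related kinase, was at 240, 239 and 248 CPM in TBK1-cKD control and 406, 220 and 233 CPM in TBK1-WT control, and the groups overlapped. Its change of -0.24 ± 0.29 was not called (adjusted p = 0.612), and its sign turned without TBK1-WT replicate 1, to 0.09.

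Over all 14681 genes tested, 657 rose in TBK1-cKD control after R837 (4.48%) and 648 fell (4.41%), at an adjusted p under 0.05. Without TBK1-WT replicate 1 the counts were 367 (2.47%) and 407 (2.73%) of 14886 genes, and without both libraries that stand apart 388 and 359. Without TBK1-WT replicate 2, 1007 genes fell. On the 6 libraries alone 25 rose and 15 fell, and on the 12 R837 libraries alone 188 and 162. Of the 1305 genes called, 1254 had 3 libraries of one group above all 3 of the other. The calls and this separation rest on the same values, so it adds no support to them. The share over all genes tested was not counted. With and without TBK1-WT replicate 1, 307 genes rose and 350 fell in both fits, and 521 of these 657 were called in the fit without both libraries too. In untreated cells, the same genotypes differed in fewer genes in the fit on all libraries, with 353 higher (2.4%) and 389 lower (2.65%). Without TBK1-WT untreated replicate 1, 179 were higher and 239 lower, and without TBK1-cKD untreated replicate 2, 184 and 208. Leaving out TBK1-WT untreated replicate 3 or TBK1-cKD untreated replicate 3 gave 221 and 197 higher. Which state held more calls depended on the fit. The 742 untreated calls stood beside 774 after R837 without TBK1-WT R837 replicate 1, and 747 without both libraries that stand apart. DESeq2, RLE scaling and no count filter also gave fewer untreated calls. The order was reversed with limma-voom (3584 untreated, 1936 after R837) and with a model term for nuclear RNA (2615 and 1857). The genes that rose in both states numbered 183, which is 27.9% of those that rose after R837 and 51.8% of those higher in untreated cells. For genes that fell the overlap was 156, or 24.1% and 40.1%.

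Genes that rose with TBK1 loss were often genes that R837 itself raises, when this is read from TBK1-WT IKKe knockout cells, which share no library with the comparison. There, 28.3% of the genes that rose were raised at least 2-fold by R837, against 10.5% of all genes tested. Of the genes that fell, 40.1% were lowered at least 2-fold by R837 and 14.7% raised, against 20.9% and 10.5% of all genes. These shares come from the fit on all libraries and were not counted without TBK1-WT replicate 1. That R837 library held Malat1 and Neat1 at the level of untreated cells. A library nearer to the untreated state would shift the genes called in these same directions, and its part in the shares was not tested.

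Interferon-inducible genes were lower with TBK1 loss in untreated cells and not after R837. Over 81 such genes (antiviral genes, GTPases and chemokines), 45 were called lower and 1 higher in untreated TBK1-cKD control, with a median log2 change of -0.66. After R837 13 were called higher and 1 lower, with a median of 0.06, against -0.03 over all genes. These were 8 and 2 without TBK1-WT replicate 1, with a median of 0.17. The difference between both effects was itself tested, as the change after R837 minus the change in untreated cells. It was called for 31 of the 81 genes, in each case as a higher value after R837, and no member had a lower one even at an unadjusted p under 0.05 in edgeR or by DESeq2 or limma-voom. Over all genes 99 (0.674%) had a higher value and 30 (0.204%) a lower one, so that 31 of those 99 were interferon-inducible. Without TBK1-WT replicate 1 of the R837 group it was 25 of 80. Leaving out any untreated TBK1-WT library, untreated TBK1-cKD replicate 2 or 3, or R837 TBK1-cKD replicate 3 left 39 to 64 in place of the 99, and leaving out any of the first 5 or R837 TBK1-WT replicate 3 left 6 to 16 in place of the 30.

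**Figure D1:**
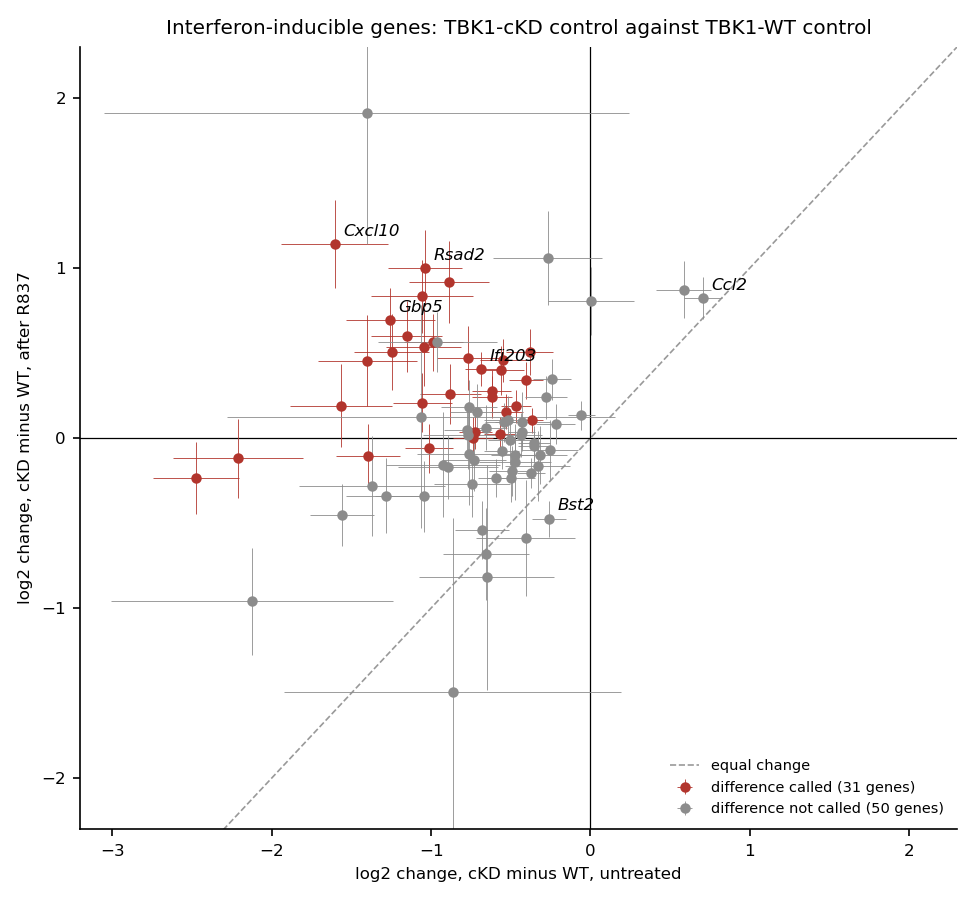
Log2 change of 81 interferon-inducible genes, TBK1-cKD control over TBK1-WT control, untreated (horizontal axis) and after R837 (vertical axis), each with its standard error, some of which run past the axes. Points above the dashed line had a higher value after R837 than in untreated cells, and the 31 red points passed the test of that difference, Cxcl10, Rsad2, Gbp5 and Ifi203 among them and Ccl2 and Bst2 not.

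Cxcl10, a chemokine for T cells, showed the widest swing among these named genes. After R837 it was at 138, 190 and 219 CPM in TBK1-cKD control and 78.9, 74.0 and 95.1 CPM in TBK1-WT control. Untreated cells held 3.06, 1.34 and 1.56 CPM in TBK1-cKD control and 6.58, 7.14 and 5.24 CPM in TBK1-WT control. TBK1-cKD libraries were thus all higher after R837 and all lower before it. The changes were 1.14 ± 0.26 after R837 (adjusted p = 0.00814; 1.10 without TBK1-WT replicate 1) and -1.60 ± 0.34 untreated (adjusted p = 0.00519), and their difference was 2.75 (adjusted p = 0.00394). Rsad2, whose product viperin blocks viral replication, was at 424, 500.0 and 647 CPM in TBK1-cKD control and 240, 243 and 303 CPM in TBK1-WT control after R837. In untreated cells Rsad2 was at 27.1, 20.5 and 23.2 CPM in TBK1-cKD control and 46.0, 50.0 and 49.6 CPM in TBK1-WT control. Its changes were 1.0 ± 0.23 after R837 (adjusted p = 0.0072) and -1.04 ± 0.23 untreated, again with libraries apart in both states. Gbp5, a guanylate-binding protein of inflammasome activation, changed by 0.69 ± 0.19 after R837 and -1.26 ± 0.28 untreated, with 117, 119 and 177 CPM in TBK1-cKD control and 89.0, 77.9 and 89.3 CPM in TBK1-WT control after R837.

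By class, the 56 tested antiviral genes had 5 higher and 1 lower after R837, with a median of 0.03, and 35 lower untreated (DNA sensor gene Ifi203, 0.40 and -0.69). Without TBK1-WT replicate 1 of the R837 group 3 were higher and 2 lower. The antiviral genes called higher were Rsad2, Ifi203, Cmpk2 (0.92), Ifit1bl1 (0.83) and Ifit1bl2 (1.06), of which the last 3 were not called without that library. The one called lower was Bst2, the gene of tetherin, which holds budding virus at the cell surface, with 125, 145 and 149 CPM in TBK1-cKD control and 214, 185 and 184 CPM in TBK1-WT control (-0.47 ± 0.10, adjusted p = 0.00632). Most classical members did not pass the test after R837, among them Isg15 at 0.18, Mx1 at -0.34, Oas3 at 0.05 and Ifit1 at 0.60. The 17 interferon-inducible GTPases, which attack vacuoles that hold microbes, had 4 higher (Gbp2, Gbp3, Gbp5 and Gm12250) after R837, against 9 lower untreated. Gbp2 and Gm12250 were not called without TBK1-WT replicate 1. Near-identical Gbp, Ifit and Ifi200 copies may share reads, and the kit keeps no strand, so single members are uncertain. Of 23 tested genes for interferons, their receptors, IRFs and STATs, 2 rose (Socs1, a feedback inhibitor, at 0.76 ± 0.15, and Socs3 at 0.34, not called without TBK1-WT replicate 1) and 1 fell (Stat4). Ifnb1, Ifna4 and Ifnl2 were under the count filter, so the interferons themselves were not detectable as a comparison at this depth.

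Interferon acts on many of its target genes through a short repeated element, here GAAA followed after any 2 bases by GAAA, searched on both strands with overlapping matches counted. Of the 10 antiviral and chemokine genes called after R837, the promoters of the 4 with this element and the smallest adjusted p are shown, so that its presence in them is a matter of choice. Sequences are from RefSeq (GRCm38.p6), each 300 bases, 250 before and 50 after the gene start, in the direction of the gene, with the motif in capitals. Rsad2 carries it on the opposite strand, and the 2 matches of Bst2 overlap. Tbk1 is shown for comparison and holds no match in this window.
Cxcl10, chr5:92348840-92349139, minus strand: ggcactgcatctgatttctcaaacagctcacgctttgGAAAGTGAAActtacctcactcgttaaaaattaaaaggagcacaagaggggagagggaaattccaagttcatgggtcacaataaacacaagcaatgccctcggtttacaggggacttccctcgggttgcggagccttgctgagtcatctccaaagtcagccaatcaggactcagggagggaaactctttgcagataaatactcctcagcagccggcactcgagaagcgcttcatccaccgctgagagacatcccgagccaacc
Rsad2, chr12:26456403-26456702, minus strand: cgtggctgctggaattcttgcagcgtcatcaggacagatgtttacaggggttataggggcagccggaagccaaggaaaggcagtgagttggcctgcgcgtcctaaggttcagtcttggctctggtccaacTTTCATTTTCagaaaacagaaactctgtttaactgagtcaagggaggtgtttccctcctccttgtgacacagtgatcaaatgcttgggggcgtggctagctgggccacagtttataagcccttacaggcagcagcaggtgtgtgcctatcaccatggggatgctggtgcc
Ifi203, chr1:173942443-173942742, minus strand: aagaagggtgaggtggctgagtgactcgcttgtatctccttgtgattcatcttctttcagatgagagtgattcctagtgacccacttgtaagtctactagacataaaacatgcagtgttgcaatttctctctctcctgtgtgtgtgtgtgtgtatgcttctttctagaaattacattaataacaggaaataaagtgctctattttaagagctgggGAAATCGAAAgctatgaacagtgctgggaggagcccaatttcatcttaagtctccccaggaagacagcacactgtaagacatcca
Bst2, chr8:71537423-71537722, minus strand: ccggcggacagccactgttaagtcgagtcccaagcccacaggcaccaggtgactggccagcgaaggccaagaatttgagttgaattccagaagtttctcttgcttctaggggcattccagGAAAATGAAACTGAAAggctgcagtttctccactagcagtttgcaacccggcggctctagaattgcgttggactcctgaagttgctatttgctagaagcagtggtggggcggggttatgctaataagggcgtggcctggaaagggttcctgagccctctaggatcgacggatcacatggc
Tbk1, chr10:121586745-121587044, minus strand: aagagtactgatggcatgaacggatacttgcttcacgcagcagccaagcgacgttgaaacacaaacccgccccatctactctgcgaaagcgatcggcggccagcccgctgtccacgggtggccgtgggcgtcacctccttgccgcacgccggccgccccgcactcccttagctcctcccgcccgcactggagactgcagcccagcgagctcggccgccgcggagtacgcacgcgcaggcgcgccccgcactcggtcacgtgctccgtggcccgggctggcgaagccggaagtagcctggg
The first match begins at position -213 in Cxcl10, -120 in Rsad2, -35 in Ifi203 and -130 in Bst2, counted from the gene start. In all 1079 of 27025 genes with a promoter entry held the motif (3.99%), against 27 of 50 listed antiviral and interferon-inducible chemokine genes with an entry (54.0%). Of those 50, the motif stood in 5 of 7 called higher after R837 and in the 1 called lower, Bst2, so that these letters occur in genes of both directions. Ifit1bl1 and Ifit1bl2 also held it, Cmpk2 and Ccl12, both called higher, had no match in this window, and Ccl2 and Ccl7 were not among the entries.

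Interferon-inducible chemokines were called higher in 4 of 8 genes (median 0.47). Besides Cxcl10 these were the monocyte chemokines Ccl2, Ccl7 and Ccl12. Ccl2 was at 178, 242 and 211 CPM in TBK1-cKD control and 99.5, 122 and 134 CPM in TBK1-WT control, a change of 0.82 ± 0.12. Ccl2 was higher in untreated cells too, by 0.71 ± 0.12, so that here the genotypes differed in the same direction in both states. Ccl7 changed by 0.87 ± 0.17, and Ccl12 by 0.81 ± 0.20, which was not called without TBK1-WT replicate 1.

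Inflammatory cytokines were higher with TBK1 loss after R837 in 11 of 34 tested genes and lower in 1, against 4.48% and 4.41% of all genes, with a list median of 0.27. Without TBK1-WT replicate 1, and without both libraries that stand apart, 12 were higher and 1 lower (medians 0.38 and 0.41). Il1a, the gene of the alarm cytokine interleukin 1 alpha, was at 78.2, 66.5 and 79.8 CPM in TBK1-cKD control and 32.7, 38.5 and 32.3 CPM in TBK1-WT control. All 3 TBK1-cKD libraries lay above the highest TBK1-WT one, with a change of 1.12 ± 0.11 (adjusted p = 2.83e-06; 2.17-fold) and 1.07 without TBK1-WT replicate 1. Il12b, the shared subunit of interleukins 12 and 23, was at 94.4, 79.8 and 106 CPM in TBK1-cKD control and 38.6, 50.3 and 52.3 CPM in TBK1-WT control (0.99 ± 0.14, adjusted p = 0.000102). The macrophage chemokine gene Ccl3 was at 386, 387 and 386 CPM in TBK1-cKD control and 245, 277 and 296 CPM in TBK1-WT control (0.50 ± 0.07). Cxcl3 and Cxcl1, which draw neutrophils, changed by 0.74 and 0.55, Il6 by 0.66, Il1b by 0.50, and Tnf and Ccl4 by 0.43 each. Il1rn, whose product blocks the interleukin 1 receptor, was also higher (0.73), and the homeostatic chemokine gene Cxcl14 was higher both after R837 (0.72) and untreated (0.78). The gene that fell was Il10, which encodes an anti-inflammatory cytokine, at -0.65 (adjusted p = 0.00037). In untreated cells 4 of the 34 were higher and 1 lower, and the test of the difference between both states was called for Ccl3 (0.41), but not without TBK1-WT replicate 1 (0.33).

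**Figure D2:**
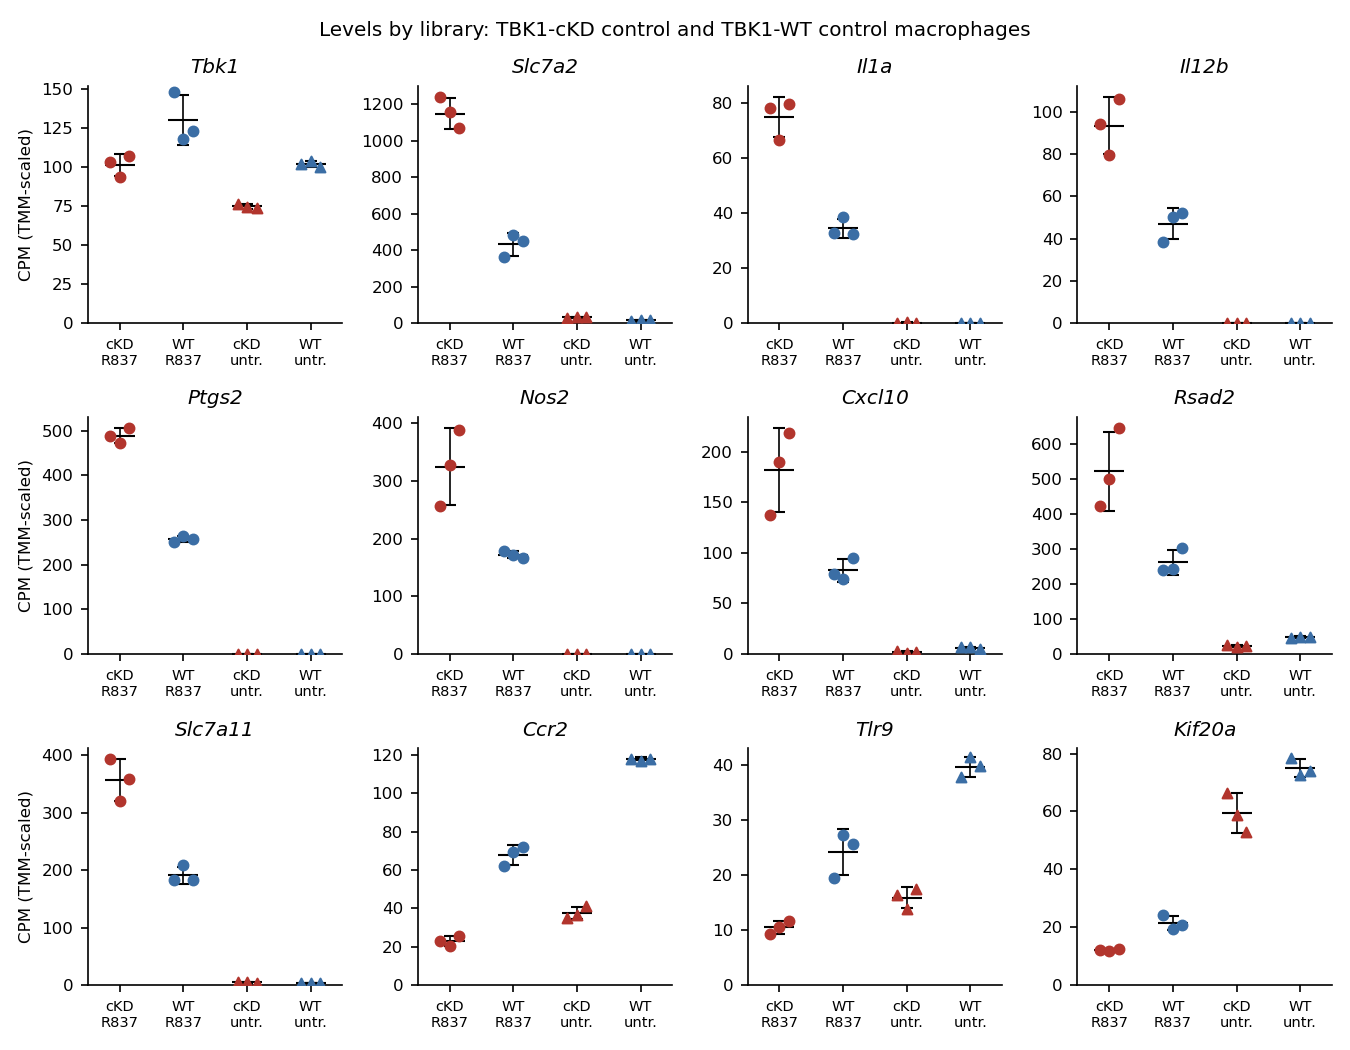
Levels of 12 genes in each library, in TMM-scaled CPM (vertical axes start at 0), for TBK1-cKD control (red) and TBK1-WT control (blue), after R837 (circles) and untreated (triangles), with the mean and SD of 3 libraries. Il1a, Il12b, Ptgs2, Nos2, Cxcl10, Rsad2 and Slc7a11 were each higher in all 3 TBK1-cKD libraries after R837, and Tbk1, Ccr2, Tlr9 and Kif20a lower.

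Antimicrobial and immunometabolic effectors moved in the same direction as the cytokines, with 8 of 29 higher and 1 lower (median 0.18; 6 and 1 without TBK1-WT replicate 1, 5 and 1 without both). Slc7a2, which imports the arginine used for nitric oxide, was at 1240, 1160 and 1070 CPM in TBK1-cKD control and 362, 484 and 453 CPM in TBK1-WT control. This was 2.67-fold higher (1.41 ± 0.11, adjusted p = 1.65e-07), and it was higher in untreated cells too (1.11 ± 0.12). Nos2, the inducible nitric oxide synthase, was at 257, 328 and 389 CPM in TBK1-cKD control and 179, 171 and 166 CPM in TBK1-WT control (0.92 ± 0.12). Ptgs2, the inducible prostaglandin synthase COX-2, was at 488, 472 and 505 CPM in TBK1-cKD control and 251, 264 and 257 CPM in TBK1-WT control. Its groups lay far apart relative to their spread (0.92 ± 0.09, adjusted p = 1.2e-06), and untreated cells held at most 0.895 CPM in either genotype. Acod1, which makes itaconate, changed by 0.64 ± 0.09, and Ch25h, which makes 25-hydroxycholesterol, by 0.94. Gch1, Clec4d and Ptges were called at 0.41, 0.23 and 0.42, and none of these 3 was called without TBK1-WT replicate 1. Chil3, a marker of alternative activation, was lower (-3.23), as in untreated cells (-2.64).

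Genes of the receptor and signalling steps were called in both directions, beside 4.48% of all genes tested called higher and 4.41% lower. Of 28 Toll-like receptor and adaptor genes, 1 rose and 2 fell. Tlr9, the receptor for CpG DNA, was at 9.38, 10.5 and 11.7 CPM in TBK1-cKD control and 19.5, 27.4 and 25.7 CPM in TBK1-WT control, a change of -1.20 ± 0.12 (adjusted p = 1.9e-06), with -1.32 ± 0.11 in untreated cells. Ticam2, the TRAM adaptor, fell by 0.36 on the log2 scale after R837 and stood at 0.06 in untreated cells. Irak2 was called at 0.23, but not without TBK1-WT replicate 1. Of 27 NF-kB subunits and feedback regulators, Tnfaip2 (0.34), Tnfaip3 (0.47), which encodes the NF-kB inhibitor A20, and Nfkbie (0.41) rose, and Nfkbiz (-0.32) fell. Among 19 IKK-related kinases and partners, Ikbkg, the regulatory subunit NEMO of the IKK complex, rose slightly, with 216, 203 and 210 CPM in TBK1-cKD control and 162, 183 and 175 CPM in TBK1-WT control (0.27 ± 0.05), and Tbk1 was the one that fell. Of 35 cell death and inflammasome genes 3 rose and 3 fell. Nlrp3, the inflammasome sensor, was at 375, 344 and 366 CPM in TBK1-cKD control and 251, 253 and 241 CPM in TBK1-WT control (0.54 ± 0.07, adjusted p = 2.85e-05). The adaptor gene Pycard fell by 0.31 on the log2 scale. Bcl2l1 (0.23), Nlrp1b (-2.48) and Mefv (-1.08) were not called without TBK1-WT replicate 1.

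Immediate early and MAP kinase feedback genes had 7 of 28 higher and 2 lower after R837, and 10 higher in untreated cells. They were 6 and 2 without TBK1-WT replicate 1, and without both libraries that stand apart 3 and 2. Egr2, an early growth response factor, was at 15.7, 17.1 and 16.4 CPM in TBK1-cKD control and 9.42, 9.49 and 8.40 CPM in TBK1-WT control (0.84 ± 0.11), and was higher untreated as well (0.77). Of the dual-specificity phosphatases that switch off MAP kinases, Dusp4 (0.52), Dusp6 (0.37), Dusp16 (0.29), Dusp1 (0.35) and Dusp5 (0.48, not called without TBK1-WT replicate 1) were higher, and Dusp2 was lower (-0.53 ± 0.10). Myc was lower after R837 (-0.38) and higher untreated (0.45).

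Cell cycle genes were lower with TBK1 loss after R837. Of 35 tested, 18 fell and 1 (Pcna, not called without TBK1-WT replicate 1) rose, with a median of -0.53. Without TBK1-WT replicate 1, 15 fell, without TBK1-cKD replicate 2, 12 fell, and without both 10 fell. Kif20a, a kinesin of cytokinesis, was at 12.2, 11.7 and 12.5 CPM in TBK1-cKD control and 24.1, 19.3 and 20.6 CPM in TBK1-WT control (-0.81 ± 0.10, adjusted p = 3.27e-05). The spindle checkpoint kinase gene Bub1b changed by -0.95 ± 0.13, the spindle motor gene Kif11 by -0.98 ± 0.14, and the topoisomerase gene Top2a by -0.72 ± 0.11. Mitotic kinase genes Aurkb (-0.53), Plk1 (-0.72) and Cdk1 (-0.43), the cyclin gene Ccna2 (-0.74) and the replication helicase gene Mcm2 (-0.56) fell as well. These genes were also lower in treated than in untreated cells of both genotypes, Kif20a at 66.5, 58.8 and 52.8 CPM in untreated TBK1-cKD control and 78.6, 72.7 and 73.9 CPM in untreated TBK1-WT control. In untreated cells edgeR called 1 of the 35 (Kif20a, -0.34), with a list median of -0.19. There 13 were lower at an unadjusted p under 0.05 in edgeR, 2 by DESeq2 and 24 by limma-voom, which called 18 lower after R837. In each state 32 of the 35 lay below 0, so the lower values were not particular to R837. The test of the difference between both states was called for none by edgeR (median -0.27). In that test 8 were lower at an unadjusted p under 0.05, 2 by DESeq2 and 0 by limma-voom. In bulk RNA, fewer dividing cells and less of this RNA per dividing cell cannot be told apart. Among 18 p53 targets, the cell cycle inhibitor gene Cdkn1a was higher (0.43 ± 0.09) and Sesn2, Btg2 and Gtse1 lower (-0.48, -0.30 and -0.42), of which Btg2 was not called without TBK1-WT replicate 1.

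**Figure D3:**
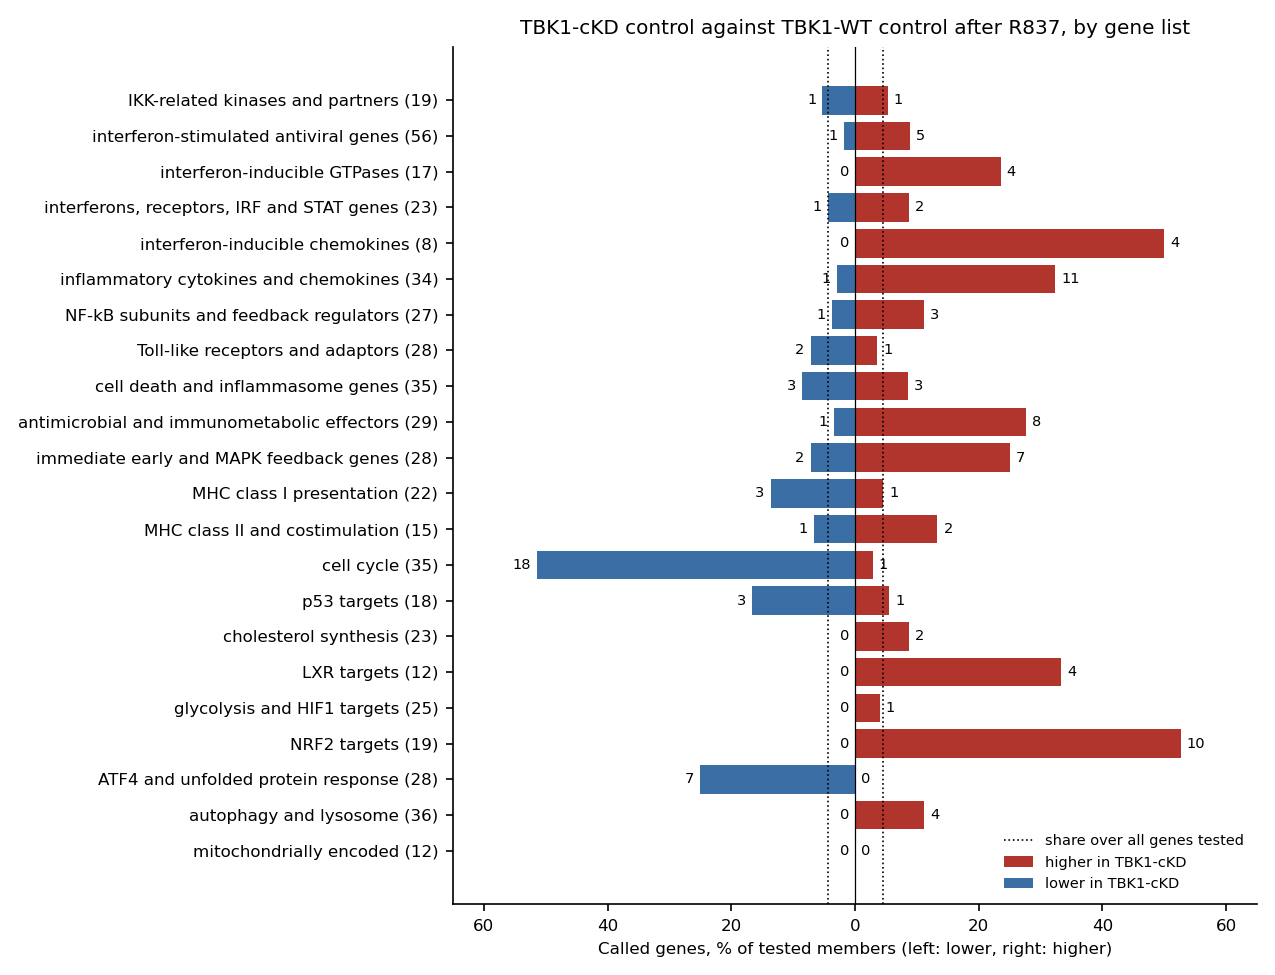
Share of tested members called higher (right, red) and lower (left, blue) in TBK1-cKD control than in TBK1-WT control after R837, for 22 gene lists, with the number called at each bar and the number tested in parentheses. Dotted lines give the shares over all genes tested, 4.48% higher and 4.41% lower. To the left the longest bars are those of cell cycle genes (18 of 35) and ATF4 and unfolded protein response genes (7 of 28), and to the right those of NRF2 targets (10 of 19), interferon-inducible chemokines (4 of 8), LXR targets (4 of 12), cytokines (11 of 34) and effectors (8 of 29).

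Targets of NRF2, the transcription factor of the oxidative stress response, were higher in 10 of 19, with no member lower even at an unadjusted p under 0.05 in edgeR or by DESeq2 or limma-voom (median 0.32). That count was 3 without TBK1-WT replicate 1 and 6 without both libraries that stand apart. Slc7a11, the cystine importer that feeds glutathione synthesis, was at 393, 321 and 359 CPM in TBK1-cKD control and 183, 209 and 183 CPM in TBK1-WT control (0.90 ± 0.09, adjusted p = 2.83e-06). The redox genes Srxn1 (0.42) and Txnrd1 (0.34) rose with and without that library, and both were higher untreated (0.33 and 0.30). Prdx1 (0.43), Hmox1 (0.44) and Txn1 (0.36) were called with all libraries and not without it.

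In the ATF4 and unfolded protein response list 7 of 28 fell (4 without TBK1-WT replicate 1, 2 without both). They were Herpud1, Sesn2, Pdia6 and Pdia4 in both of the first fits, and Atf4, Hspa5 and Sdf2l1 in the first alone. Herpud1, of endoplasmic reticulum quality control, was at 52.1, 54.0 and 58.8 CPM in TBK1-cKD control and 68.0, 80.7 and 81.6 CPM in TBK1-WT control (-0.48 ± 0.08). Of 12 LXR targets, the cholesterol exporters Abca1 (0.49 ± 0.06) and Abcg1 (0.47 ± 0.09) rose in both of those fits, and Scd2 and Smpdl3a in the first alone. With all libraries 4 were higher and 0 lower. Without TBK1-WT replicate 1 this list had 2 higher and 1 lower, and without both libraries 3 and 1. Cholesterol synthesis had 2 of 23 higher, neither of them without TBK1-WT replicate 1. Glycolysis and HIF1 targets had 1 of 25 higher (Pfkfb3, 0.46), although 7 were higher in untreated TBK1-cKD control. Autophagy and lysosome genes had 4 of 36 higher, and 1 without TBK1-WT replicate 1. That one was Gpnmb, a lysosomal glycoprotein gene, at 8350, 8000 and 8360 CPM in TBK1-cKD control and 3860, 5030 and 5140 CPM in TBK1-WT control (0.82 ± 0.11). None of 12 mitochondrially encoded genes was called by edgeR, with 3 higher at an unadjusted p under 0.05 and 1 each by DESeq2 and limma-voom.

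Few antigen presentation genes were called, beside 4.48% of all genes tested called higher and 4.41% lower. The 1 of 22 MHC class I genes called higher is near that share. With counts this small, nothing is read about these lists as a whole. Of 22 MHC class I genes, Tapbpl, a peptide editor, was higher (0.26 ± 0.06), and the non-classical genes H2-Q6 (-0.59), H2-Q7 (-0.63) and H2-M3 (-0.28, not called without TBK1-WT replicate 1) were lower. H2-Q genes are near-identical copies, so their reads may be split. Of 15 MHC class II and costimulation genes, Cd86, a ligand of T cell CD28, was at 8.56, 8.93 and 8.48 CPM in TBK1-cKD control and 5.51, 6.31 and 6.09 CPM in TBK1-WT control (0.54 ± 0.11). H2-DMb1 was called higher (0.44) with all libraries, but not without TBK1-WT replicate 1. Icosl, the ligand of the costimulator ICOS, was lower (-0.64 ± 0.12, and -0.36 without both libraries).

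The genes of largest rise were led by Adam19, a membrane metalloproteinase. It was at 72.9, 68.9 and 63.4 CPM in TBK1-cKD control and 17.1, 15.0 and 13.9 CPM in TBK1-WT control after R837, a 4.45-fold difference (2.15 ± 0.09, adjusted p = 2.71e-12). It was higher in untreated cells too (1.51 ± 0.09), and the difference between both states was called (0.65). Prdm16, a transcription factor gene, was at 2.70, 3.05 and 2.73 CPM in TBK1-cKD control and 0.710, 0.558 and 0.676 CPM in TBK1-WT control (2.11 ± 0.22). Olr1, a receptor for oxidised lipoprotein, was at 26.2, 27.7 and 23.9 CPM in TBK1-cKD control and 8.69, 9.99 and 10.2 CPM in TBK1-WT control (1.43 ± 0.15). Serpinb2, an inhibitor of plasminogen activators with at most 0.148 CPM in untreated cells of both genotypes, was at 86.5, 87.8 and 88.8 CPM in TBK1-cKD control and 34.6, 40.5 and 33.8 CPM in TBK1-WT control (1.27 ± 0.15). The carbonic anhydrase gene Car2 rose by 1.22, and the receptor tyrosine kinase genes Epha4 and Ryk by 1.34 and 1.29 (Ryk 0.79 without both libraries). Fam78b (1.28), Mid1 (1.33), Lims2 (1.33), Eps8l1 (1.25) and Cryab (1.25) followed, all but Cryab also called without both libraries. Tmem116 and Abcb9 owed much of their rise to TBK1-cKD replicate 2, at 5.10 and 3.50 CPM against at most 2.29 and 1.70 CPM in its group mates, and without both libraries they stood at 0.89 and 0.65, the second not called.

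The genes of largest fall were mostly of low level, and several are known from other blood cells. S100a9, a calgranulin of neutrophils, was at 0.0879, 0 and 0.341 CPM in TBK1-cKD control and 2.20, 2.60 and 2.59 CPM in TBK1-WT control (-3.98 ± 0.44, adjusted p = 9.03e-06). Igha, the immunoglobulin A heavy chain of plasma cells, was at 3.49, 1.66 and 2.57 CPM in TBK1-cKD control and 12.4, 17.2 and 13.3 CPM in TBK1-WT control (-2.42 ± 0.37). Iglc1, a light chain gene, was called in 6 of 14 fits. Ly6a, the Sca-1 antigen and an interferon target, changed by -2.70 ± 0.34, Asb2 by -2.37, Fcrl5 by -2.17 and Rtn4r by -1.67. Stat4, which relays interleukin 12, was at 0.762, 0.499 and 0.681 CPM in TBK1-cKD control and 2.62, 2.69 and 2.51 CPM in TBK1-WT control (-1.96 ± 0.22). The fall of best counted level was that of Ccr2, the receptor for Ccl2 and Ccl7. It was at 22.8, 20.2 and 25.4 CPM in TBK1-cKD control and 62.1, 69.3 and 72.0 CPM in TBK1-WT control (-1.57 ± 0.08, adjusted p = 2.17e-10), with -1.65 ± 0.08 in untreated cells. The basement membrane collagen gene Col4a1 (-1.46) and the C-type lectin gene Clec4b1 (-1.57) fell with it. Knl1 (-1.84), Fgd2 (-1.67) and Map1a (-1.55) were highest in TBK1-WT replicate 1, and without that library stood at -0.97, -1.18 and -1.16, and Knl1 was not called without both. S100a9, Iglc1 and Rtn4r had no count in TBK1-cKD replicate 2, the library with many weakly expressed genes at 0.

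**Figure D4:**
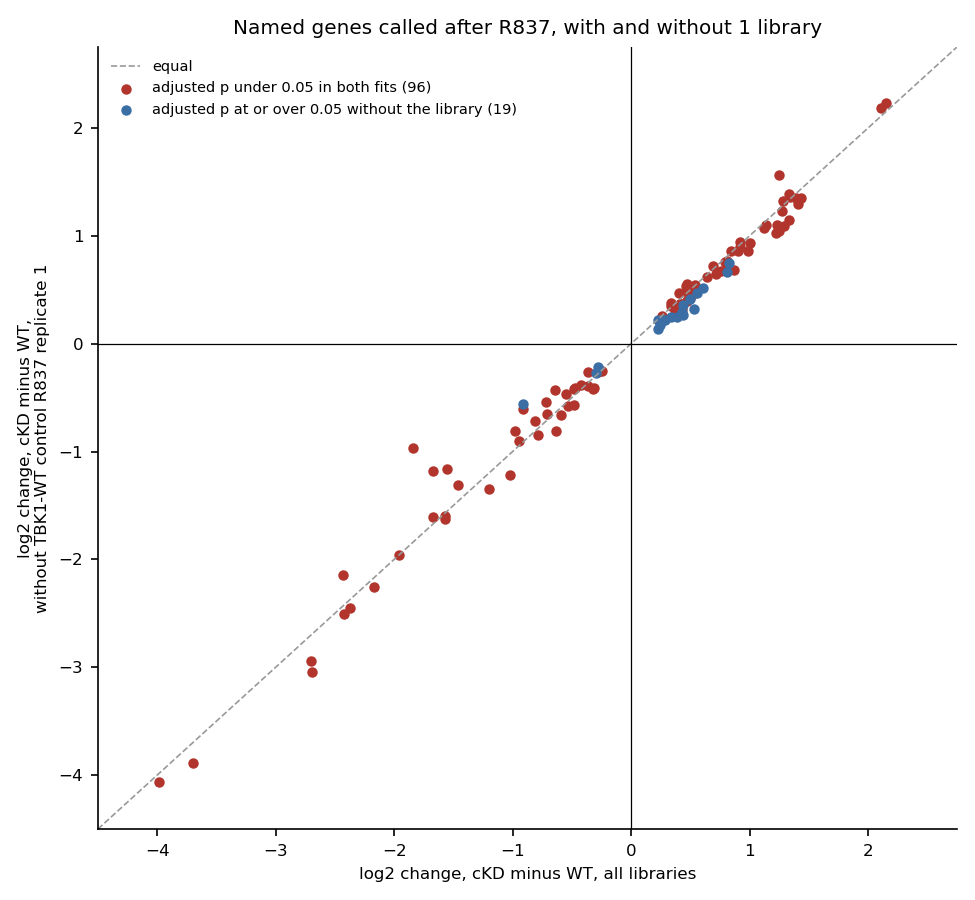
Log2 change, TBK1-cKD control over TBK1-WT control, after R837 for 115 named genes called with all libraries (Ltf, with no count in TBK1-cKD control, is left out), with all libraries (horizontal axis) and without TBK1-WT replicate 1 (vertical axis). Most points lie near the dashed line of equal change. Of these genes, 96 (red) were called in both fits and 19 (blue) were not called without that library. The largest rises and falls were named only if called in both fits, and list members by smallest adjusted p. This share is therefore partly set by the choice of genes. Over all genes, 657 of the 1305 called with all libraries were also called without TBK1-WT replicate 1.

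Markers of other cell types were measured beside these results. The 14 neutrophil markers summed to 1140 to 1250 CPM in TBK1-cKD control and 677 to 718 CPM in TBK1-WT control, nearly all of it Mmp9, a metalloproteinase that macrophages make as well (0.81 ± 0.10). Of 9 tested, 2 rose (Mmp9 and S100a8) and 3 fell (S100a9, Ngp and Ltf), and Cxcr2, Ltf and Retnlg were at 0 in TBK1-cKD control, and Elane, Ly6g and Retnlg at 0 in TBK1-WT control. Ltf had 0 counts over the 3 TBK1-cKD libraries and 47 over the 3 TBK1-WT libraries, at least 12.8-fold lower taking 3 counts over a whole group as the floor. The 14 lymphocyte markers summed to 77.0 to 81.6 CPM in TBK1-cKD control and 61.3 to 68.6 CPM in TBK1-WT control, mostly Il7r, which rose (0.38), with the T cell genes Cd3e and Cd3g at 0 in both groups. Cd8a had 2 counts in TBK1-cKD control and 36 in TBK1-WT control, and the ratio of TBK1-WT over TBK1-cKD was 14.7 (95% counting interval 3.77 to 126, counting error only). Stromal markers summed to 54.1 to 63.6 CPM in TBK1-cKD control and 78.5 to 101 CPM in TBK1-WT control, and 5 of 15 fell, with Col3a1 at -0.91 (-0.59 without both libraries), Sparc at -0.79 and Col1a2 at -0.71. Osteoclast markers summed to 1560 to 1680 CPM in TBK1-cKD control and 1080 to 1110 CPM in TBK1-WT control, with 5 of 10 higher (Mmp9, Acp5, Car2, Atp6v0d2 and Ctsk) and 1 lower. Mmp9 stands in this list as in the neutrophil list and makes up most of this sum too. The gap between the groups in the osteoclast sum is therefore largely that of Mmp9. Dendritic cell, mast cell and erythroid lists had no call by edgeR, with sums that overlapped between groups. At an unadjusted p under 0.05 the dendritic cell list had 1 higher and 3 lower, the mast cell list 1 lower and the erythroid list 2 lower, and DESeq2 called 1 gene and limma-voom 3 genes over the 3 lists. Of the 18 macrophage markers, the scavenger receptor genes Msr1 (0.27) and Cd163 (1.21) rose, and the TAM receptor gene Axl (-1.02 ± 0.15) and Maf (-0.55 ± 0.08) fell. The part of other cell types in the falls of S100a9, Igha, Col4a1 and genes like them was not tested.

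TBK1 loss was last set against loss of the related kinase, as TBK1-cKD control against TBK1-WT IKKe knockout after R837. Neither of these groups had a library of high Malat1 and Neat1. The fit on all 24 libraries still drew its spread from such libraries. Besides TBK1-WT control replicate 1, TBK1-cKD IKKe knockout replicate 3 after R837 held 361 and 756 CPM of Malat1 and Neat1. In that fit 550 genes were higher with TBK1 loss (3.75%) and 492 lower (3.35%). On the 6 libraries of the comparison alone 416 were higher and 356 lower. Leaving out any IKKe knockout library gave 352 to 363 higher, leaving out its replicate 1 or 3 gave 325 or 304 lower, and on the 12 R837 libraries alone 194 were higher and 181 lower. Ikbke was at 240, 239 and 248 CPM in TBK1-cKD control and 77.0, 70.5 and 79.3 CPM in TBK1-WT IKKe knockout (1.68 ± 0.30). Among the 81 interferon-inducible genes 21 were higher and 6 lower (median 0.31), with Cxcl10 at 64.9, 66.0 and 83.7 CPM in IKKe knockout cells, below the TBK1-cKD libraries given above (1.35 ± 0.26). Cytokines ran the other way, with 2 of 34 higher and 6 lower with TBK1 loss. Ptgs2 was at 488, 472 and 505 CPM in TBK1-cKD control and 691, 663 and 565 CPM in IKKe knockout cells (-0.39 ± 0.09, adjusted p = 0.00611). Il1a and Nos2 did not pass the test between both losses (-0.32 ± 0.11, adjusted p = 0.0822, and -0.35 ± 0.12, adjusted p = 0.0904), nor did Il12b (-0.05 ± 0.14), Ccl3 (-0.05) or Nlrp3 (0.08). Adam19 (2.10), Ccr2 (-1.66), Axl (-1.16), Egr2 (1.38), Gpnmb (0.71) and Tlr9 (-0.85) differed between both losses in the direction in which TBK1-cKD control differed from TBK1-WT control. NRF2 targets had 9 of 19 higher, and cell cycle genes 1 higher and 3 lower of 35.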

How the data were processed

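RNA of 24 bone marrow-derived macrophage libraries was read on a HiSeq4000 as single 50-base reads from an unstranded kit, per the labels. The authors deposited, for each library, whole-number counts per Ensembl gene, RPKM and a gene width in bases. The deposited RPKM values, counts scaled by that width and by a library total, were used only as a check. GSNAP and GRCm38 are named in the submitters' processing notes. No label or header names the counting program or annotation.

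Counts of 52636 genes were used as deposited, 0 columns went unused, and 233 identifiers without a symbol held 0.0187% of counts. Totals were 19.7 to 41.3 M, and their number limits the precision of weakly expressed genes. edgeR 4.0.16 in R 4.3.3 was fitted on all 24 libraries with 1 mean for each of 8 groups, TMM scaling and its expression filter (minimum count 10, minimum total 15), which kept 14681 genes. The fit had 16 residual degrees of freedom and a common biological coefficient of variation of 0.116. Quasi-likelihood F tests were adjusted by Benjamini-Hochberg over all genes tested, with 0.05 as the threshold. Standard errors were derived from the log2 change and F. On simulated counts for TBK1 loss after R837, over 14681 genes, 43 of 50 genes raised and 42 of 50 lowered by 1 on the log2 scale were recovered, and 50 and 49 of 50 at 2, with 6 false calls. The simulation gave each gene the same mean in every group, apart from the changes set, which were made only in well counted genes. It held no library that stands apart, so it checks the code and not the rates of recovery or false calls in these data.

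Named genes are Tbk1, Ikbke, the 15 largest rises and 15 largest falls called with and without TBK1-WT replicate 1, without overlap of libraries, at a mean of at least 2 CPM in the higher group, and up to 4 members of smallest adjusted p in each of 31 gene lists. Other called list members are given by their list count, and a few were named after their values were seen. The members and lists were chosen with earlier results of these data known, so list counts are descriptions. Alternatives were DESeq2 1.42.0, limma-voom (limma 3.58.1), RLE scaling, no count filter, fits on 12 or 6 libraries, a nuclear RNA term and each library left out. Gene coordinates are those of the GENCODE annotation of GRCm38 and promoters those of RefSeq on GRCm38.p6. Counting intervals and floors cover counting error only. A few genes are not reported here.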

Additional observations from a re-analysis of the deposited data

Results flagged for a closer look

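These genes are listed because the genotype difference after R837 and that in untreated cells were themselves found to differ by edgeR's test of the difference, given as the log2 change after R837 minus that in untreated cells. Among interferon-inducible genes it was 2.75 for Cxcl10, 2.04 for Rsad2, 1.95 for Gbp5, 1.89 for Ifit1bl1, 1.55 for Gm12250, 1.09 for Ifi203, 1.0 for Gbp3 and 0.89 for Gbp2. It was 1.14 for Socs3, a feedback inhibitor of cytokine receptors. In the antigen presentation lists it was 0.94 for H2-Q6, 0.68 for Cd86 and 0.39 for Tapbpl. Among inflammatory genes it was 0.94 for Ptgs2, 0.55 for Nlrp3 and 0.41 for Ccl3, and for the metalloproteinase gene Adam19 it was 0.65. It was negative for Ticam2 at -0.42 and for Mmp9 at -0.76. Without TBK1-WT R837 replicate 1 the difference was no longer called for Gbp2 (0.79), H2-Q6 (0.87), Cd86 (0.62), Ptgs2 (0.91) and Ccl3 (0.33), and it stayed called for the other genes named here. All 12 untreated libraries held Malat1 and Neat1 at the level of the R837 library that stands apart, so treatment and nuclear RNA level move together in this difference. A fit with a term for nuclear RNA called 367 genes higher and 264 lower in it. The values of that fit for the genes named here are not given.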

How the results depend on the processing

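No paired analysis was possible because the labels carry no replicate numbers. For TBK1 loss after R837, leaving out 1 library gave 367 to 741 genes higher and 407 to 1007 lower. The 12 R837 libraries alone gave 188 and 162, the 6 libraries alone 25 and 15 (both with fewer samples by construction), and the fit without both libraries that stand apart, chosen after seeing the data, 388 and 359. limma-voom gave 1039 higher. DESeq2, RLE scaling, no count filter and the nuclear RNA term stayed within 1.5 times of the counts reported. For TBK1 loss in untreated cells, leaving out 1 library gave 179 to 379 higher and 208 to 335 lower, limma-voom 1816 and 1768, and the nuclear RNA term 1297 and 1318. For the difference between both states, leaving out 1 library gave 39 to 111 higher and 6 to 31 lower, DESeq2 188 and 77, limma-voom 450 and 367, and the nuclear RNA term 367 and 264, while no count filter gave 18 lower. For TBK1 loss against IKKe loss, leaving out 1 library gave 352 to 584 higher and 304 to 520 lower, the 12 R837 libraries alone 194 and 181, limma-voom 1091 and 1022, and the nuclear RNA term 1255 and 1218. The cause of these shifts was not tested. Of 119 genes followed, 16 kept their call in all 14 settings, and 58 in all but the 6-library fit. Signs turned for Ikbke and Neat1, which were not called: to 0.08 and 0.14 with limma-voom, 0.22 and 0.11 with the nuclear RNA term, 0.09 and 0.17 without TBK1-WT replicate 1, and 0.11 and 0.27 without both libraries. Over single libraries left out, Ikbke ran between -0.4 and 0.09 and Neat1 between -3.44 and 0.17. Of the 119 genes, 19 lost their call without TBK1-WT replicate 1 and 18 without TBK1-cKD replicate 2. The largest rises and falls among them were named only if called without TBK1-WT replicate 1, so the first count is partly set by that choice. Depth limits the precision of weakly expressed genes in every library. TBK1-cKD R837 replicate 2 had 14226 genes with a count at 19.7 M counts, while an untreated TBK1-WT IKKe knockout library had 18427 at 20.3 M, and the cause of its many genes at 0 was not tested.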

Other observations

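Genes not described so far also differed between both states. They were chosen after their values were seen, and the values are log2 changes of TBK1-cKD control over TBK1-WT control. Lcn2, the siderophore-binding protein lipocalin 2, stood at 0.21 after R837, not called, and -2.8 in untreated cells, a difference of 3.01 ± 0.50 (edgeR, adjusted p = 0.00509). Vcam1, an adhesion molecule for leukocytes, stood at 0.51 after R837 and -1.36 in untreated cells. Tnfsf10, the death ligand TRAIL, stood at 0.51 and -1.26 in the same order, of which the first was not called. Fcgr2b, the inhibitory Fc receptor, stood at 0.23 and -0.53. The transcription factor gene Tox2 stood at 1.32 after R837, and its untreated value of -0.08 was not called. Nfe2l2, which encodes NRF2 itself, stood at 0.36 after R837 and 0.07 in untreated cells, the second not called.

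Among genes with a negative difference, Slc13a3, a dicarboxylate transporter, stood at -0.99 after R837 and 0.3 in untreated cells, the second not called, with a difference of -1.28 ± 0.17 (edgeR, adjusted p = 0.00126). Pim2, a survival kinase, stood at -0.78 and 0.28, Prkcb, a protein kinase C, at -0.73 and 0.07, and Fancd2, of DNA crosslink repair, at -0.97 and -0.21, with the untreated value not called in each. Jdp2, a repressor of AP-1, stood at 0.01 after R837, not called, and 0.5 in untreated cells.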
